A study of Mus musculus with 2 samples.

Results

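The genes described here encode the ARID, ATPase and core subunits of the mouse SWI/SNF chromatin remodelling complexes, and the values are the Arid1b ChIP-seq peaks listed in or within 10 kb of them. The 10 genes were Arid1a, Arid1b, Arid2, Pbrm1, Smarca4, Smarca2, Smarcb1, Smarcc1, Smarcc2 and Smarce1, taken by name, and the rule found 21 of the 8318 deposited peaks. The choice of genes was made with earlier results of these data known. A peak is an interval in which fragments of the Arid1b immunoprecipitate piled up above the level expected from input chromatin. The series title concerns Arid1a, Plagl1 and Hedgehog signalling in tooth root progenitors and its design text names a conditional Arid1a allele, whereas both libraries came from wild-type C57BL/6 mice. Dental mesenchyme cells of the apical part of the first mandibular molar, taken between postnatal day 3.5 and 7.5, were grown as primary cultures in medium with 10% serum. One library (n = 1) was made with an antibody against Arid1b and 1 was input without antibody. No Arid1a-deficient sample was analysed here, and the labels name no separate cultures or animals. With 1 library a side there is no replicate check, and no value below carries a test. How many cells carried a signal and how strong it was in each cell cannot be told apart.

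SWI/SNF complexes use the energy of ATP to slide or evict nucleosomes, and so open or close promoters and enhancers. The BAF and PBAF complexes are built around 1 of a pair of alternative ATPases, Smarca4 (BRG1) or Smarca2 (BRM), with a core of Smarcc1, Smarcc2, Smarcb1 and Smarce1. Canonical BAF complexes carry either Arid1a or Arid1b, which exclude each other, while PBAF complexes carry Arid2 together with Pbrm1.

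Arid1b signal was listed at most of these genes, close to their ends. Of the 10, 9 had a peak inside them or up to 10 kb away, against 31.7% of the 21887 protein-coding genes and 38.7% of the 9049 whose span lies in the members' range of 21971 to 353360 bp. A peak within 1 kb of a start site or outer gene boundary was listed at 8 of 10, against 24.3% of all protein-coding genes and 31.2% of those of like span. Like span means only a span in that range, without matching inside it. Arid1a (5 peaks) and Arid2 (4 peaks) had at least 4 peaks, as 2.39% of all protein-coding genes and 2.41% of those of like span did. Arid1b had 3, Smarca4, Smarcc2 and Smarce1 had 2 each, Pbrm1, Smarca2 and Smarcc1 had 1 each, and Smarcb1 had none. The 8 with a peak within 1 kb include Smarcc2, whose peak lies at its 3′ end. With listed start sites only, which Arid2 and Smarce1 lack, 5 members remain. The listed member promoters were rich in CpG dinucleotides. Of protein-coding starts with at least 20 CpG in the promoter, 45.6% had a peak within 1 kb. Whether these shares differ from those of other genes was not tested. Because the members were chosen with earlier results of these data known, their shares are a description only.

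**Figure D1:**
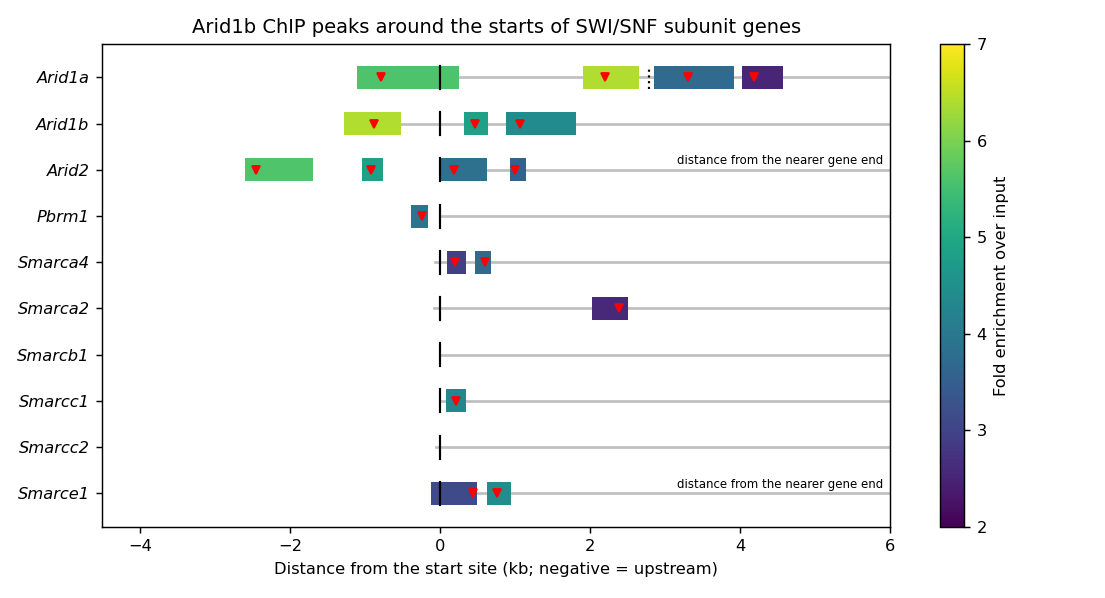
Position of each peak (boxes, coloured by the authors' fold over input) and its summit (red triangles) along the direction of transcription, in kb from the start site (black line; dotted line, second start of Arid1a; grey line, gene). For Arid2 and Smarce1 distances are from the nearer gene end, and negative values lie outside the gene. The peak beyond the far end of Arid1a and both Smarcc2 peaks lie outside the range drawn, and no peak is drawn at the starts of Smarcb1 and Smarcc2.

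The promoter sequences show how the peaks sat against the start sites. RefSeq promoters (GRCm38.p6, the assembly that mm10 names; 250 bases before to 50 after the start) were listed for 8 of the 10 genes, all but Arid2 and Smarce1. The first 4 are shown because they range from complete to no overlap with a peak. They are printed 5′ to 3′ on the strand of the gene, and capitals mark bases inside a deposited peak.
Arid1a outer start, chr4:133756720-133757019, minus strand: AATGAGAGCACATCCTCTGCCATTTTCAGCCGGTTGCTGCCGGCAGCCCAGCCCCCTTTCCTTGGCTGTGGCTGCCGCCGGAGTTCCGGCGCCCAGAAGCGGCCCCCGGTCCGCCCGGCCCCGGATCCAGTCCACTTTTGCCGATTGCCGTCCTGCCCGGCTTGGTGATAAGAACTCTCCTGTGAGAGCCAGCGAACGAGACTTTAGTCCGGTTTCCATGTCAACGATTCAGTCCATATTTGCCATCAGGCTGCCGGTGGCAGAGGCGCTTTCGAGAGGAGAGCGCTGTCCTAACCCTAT
Arid1a inner start, chr4:133753936-133754235, minus strand: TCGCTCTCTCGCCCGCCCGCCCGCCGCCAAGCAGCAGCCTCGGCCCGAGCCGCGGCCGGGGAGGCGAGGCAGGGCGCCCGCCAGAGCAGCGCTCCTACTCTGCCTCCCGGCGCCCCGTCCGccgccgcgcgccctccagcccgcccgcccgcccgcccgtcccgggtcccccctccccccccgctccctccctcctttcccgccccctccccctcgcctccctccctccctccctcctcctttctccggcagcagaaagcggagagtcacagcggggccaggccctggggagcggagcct
Pbrm1, chr14:31018888-31019187, plus strand: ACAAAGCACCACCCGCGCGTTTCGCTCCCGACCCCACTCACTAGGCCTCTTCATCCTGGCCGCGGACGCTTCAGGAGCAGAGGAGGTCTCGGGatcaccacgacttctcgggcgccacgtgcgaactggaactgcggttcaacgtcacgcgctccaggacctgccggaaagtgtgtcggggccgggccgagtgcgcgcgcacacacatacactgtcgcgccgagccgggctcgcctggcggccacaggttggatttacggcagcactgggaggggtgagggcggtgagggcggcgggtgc
Arid1b, chr17:4994824-4995123, plus strand: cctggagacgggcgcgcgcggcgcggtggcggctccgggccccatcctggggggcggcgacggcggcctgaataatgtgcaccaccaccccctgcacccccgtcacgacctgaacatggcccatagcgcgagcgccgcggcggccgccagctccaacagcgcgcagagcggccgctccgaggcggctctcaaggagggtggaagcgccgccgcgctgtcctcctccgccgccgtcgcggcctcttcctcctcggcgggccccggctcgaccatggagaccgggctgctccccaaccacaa
The outer Arid1a promoter lay inside a peak over all 300 bases, the inner one over 121 bases, and that of Pbrm1 over 93 bases. The Arid1b promoter lay in the gap between neighbouring peaks, with 0 bases covered.

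Arid1a, the ARID subunit named in the title, carried 4 peaks around its starts and 1 beyond its other end. The gene lies at chr4:133679008-133756769 on the minus strand. Its outer start, at position 133756769, lay inside the widest peak of the genes described, chr4:133756522-133757870 (1349 bp), with a fold of 5.60 (95% interval 4.25 to 7.26). The authors' fold fits the ChIP pileup plus 1 over the level expected from input plus 1, at the summit, here with 55 fragments and an expected level of 8.99. The interval puts the exact Poisson bounds of the pileup into the same ratio. It covers counting error only. The summit of that peak lay 787 bp upstream of the start. The inner start, at 133753985, lay in a gap of 196 bp between a peak on its upstream side, chr4:133754115-133754867, and one on its downstream side, chr4:133752858-133753918. The upstream peak was the strongest of the gene, with a fold of 6.40 (4.92 to 8.19), a pileup of 61 and a summit 582 bp from the start. The downstream peak had a fold of 3.70 (2.72 to 4.92), a pileup of 45 and a summit 519 bp from the start. A last peak on that side, chr4:133752199-133752740, had the lowest fold of all 21 at 2.52 (1.80 to 3.43). Its pileup of 38 was the median of all peaks, while its expected level of 14.5 was the highest among the 21.

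The remaining Arid1a peak lay nearer to another gene. It was listed at chr4:133672792-133673229, 5779 bp beyond the far end of Arid1a, with a fold of 3.81 (2.75 to 5.16). Its summit lay inside the neighbouring gene Pigv, which encodes a mannosyltransferase of GPI anchor synthesis, 225 bp upstream of a listed Pigv start.

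Arid1b, the gene of the precipitated protein itself, had all 3 of its peaks at its 5′ end. The gene spans 353360 bp (chr17:4994297-5347656, plus strand), and the remaining 350774 bp after the last peak held none. The peak upstream of the listed start at 4995074, chr17:4993788-4994547, had the highest fold of the 21 at 6.41 (4.96 to 8.15), from a pileup of 64 and an expected level of 9.15. Its summit lay 883 bp upstream of that start and 106 bp outside the annotated gene. The other peaks, chr17:4995391-4995712 and chr17:4995953-4996882, had folds of 4.85 (3.58 to 6.44) and 4.40 (3.31 to 5.73) and summits 467 and 1067 bp downstream. The start lay in the gap of 843 bp between the first peak and the second, as the inner start of Arid1a did between its peaks, whereas the outer gene boundary at 4994297 lay inside the first peak. The strongest folds of the paralogues, 6.40 and 6.41, differed by far less than their counting intervals.

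The PBAF genes differed in how many peaks they carried. Arid2 encodes the ARID subunit of PBAF and spans chr15:96287522-96405463, and 4 peaks had summits within 2457 bp of its low-coordinate boundary. Outside the gene were the strongest, chr15:96284917-96285832 with 5.63 (4.29 to 7.27), and chr15:96286479-96286758 with 4.85 (3.58 to 6.44). Inside it were chr15:96287538-96288152 with 3.84 (2.75 to 5.24) and chr15:96288450-96288661 with 3.55 (2.50 to 4.90). The predicted gene Gm38469 runs from 96134817 to 96287398, so both peaks outside Arid2, the strongest included, lay inside Gm38469, and to which of these genes their signal belongs cannot be told apart. The fold was lower at each step from the outermost peak to the innermost, but the intervals of all 4 overlap.

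Pbrm1, which encodes the polybromo subunit that binds acetylated histone tails, had a single peak. It lay at chr14:31018754-31018980 with a fold of 3.92 (2.79 to 5.37) and a pileup of 37. The peak ended 158 bp before the Pbrm1 start at 31019138, and its summit lay 239 bp upstream of it. Gnl3, which encodes the nucleolar protein nucleostemin, starts 7 bp away on the opposite strand, and the same summit lay 232 bp downstream of the Gnl3 start. The peak therefore lay inside Gnl3 and outside Pbrm1, and to which of these genes the signal belongs cannot be told apart.

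**Figure D2:**
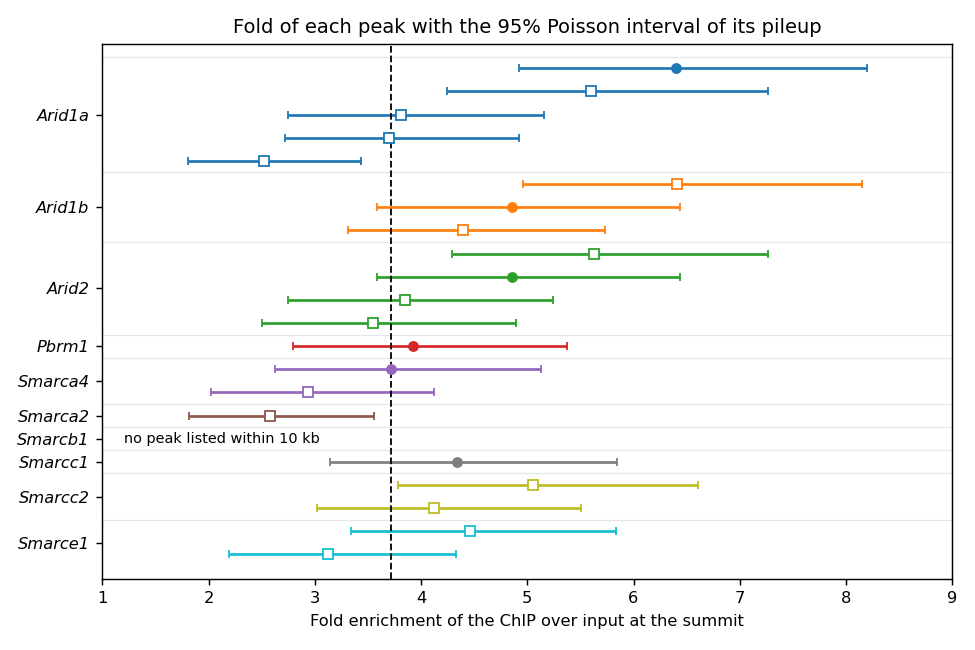
The authors' fold enrichment of each of the 21 peaks with the 95% Poisson interval of its pileup (filled circles, expected level at the genome background; open squares, higher local input level; dashed line, median of all 8318 peaks, 3.72). The intervals of 14 of the 21 peaks include that median, 5 lie above it (at Arid1a, Arid1b, Arid2 and Smarcc2) and 2 lie below it (at Arid1a and Smarca2).

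The ATPase genes had the 2 lowest strongest folds of the 9 genes with a peak. Smarca4, at chr9:21616106-21704230 on the plus strand, had peaks at chr9:21616260-21616513 with 2.93 (2.02 to 4.13) and chr9:21616634-21616849 with 3.72 (2.62 to 5.13), on pileups of 31 and 35. Their summits lay 202 and 600 bp downstream of the start at 21616169, and no part of either reached it. The single peak at Smarca2 lay deeper in the gene, at chr19:26607190-26607665, with its summit 2390 bp downstream of the listed start at 26605160 and a fold of 2.58 (1.82 to 3.56). Its pileup of 35 equalled that of the stronger Smarca4 peak, while the expected level was 13.0 against 8.68. Smarca2 thus had a ChIP pileup like that of its paralogue and a lower fold over a higher local input. The noncoding gene Gm52395, on the opposite strand, starts 1040 bp from the Smarca2 summit.

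Among the core genes, Smarcc1 had 1 peak just inside its start. Smarcc1 and Smarcc2 encode the paired scaffold subunits BAF155 and BAF170. The Smarcc1 peak, chr9:110132101-110132372, had a fold of 4.34 (3.14 to 5.85), and its summit lay 209 bp downstream of the start at 110132024. Smarcc2 had a higher strongest fold, 5.05 (3.78 to 6.61), although the intervals overlap, and the place was a different one. The Smarcc2 gene runs from 128459182 to 128490591 on the plus strand of chromosome 10, and no peak lay within 1 kb of its start at 128459236. Its strongest peak, chr10:128489741-128490372, lay at the other end of the gene, with its summit 30996 bp downstream of the start, 359 bp before the 3′ boundary and 627 bp from the nearer boundary of Myl6. A second, chr10:128493234-128493823 with 4.13 (3.02 to 5.51), lay 2643 bp beyond the 3′ boundary of Smarcc2, inside Myl6, which encodes a myosin light chain and lies on the opposite strand. The summit of that peak was 462 bp from the Myl6 boundary at 128493886, which is also its outer start, and 415 bp upstream of its inner listed start at 128493009. Myl6b also has a boundary within 1 kb of it. A boundary count without strand takes Smarcc2 as a gene with a peak at its end, whereas its own start had none.

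Smarce1 encodes the HMG-box subunit BAF57, and Smarcb1 encodes SNF5, a core subunit lost in rhabdoid tumours. Smarce1 (chr11:99209047-99231017) had peaks at chr11:99230525-99231135 with 3.12 (2.19 to 4.33), which reached over its high-coordinate boundary, and at chr11:99230078-99230392 with 4.46 (3.34 to 5.83). Their summits lay 436 and 753 bp inside that boundary. Smarcb1 (chr10:75896769-75921614, minus strand) had no peak, and the nearest lay 36630 bp away with a fold of 4.03. The list holds only peaks past the authors' threshold: where input gave no more than the genome background of 8.68 fragments, the smallest listed pileup was 24 and the lowest fold 2.58. A weaker signal at Smarcb1 was not detectable.

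Over the 9 genes with a peak, the strongest folds ran from Arid1b, Arid1a and Arid2 through Smarcc2, Smarce1, Smarcc1 and Pbrm1 to Smarca4 and Smarca2. None of the 8 pairs of neighbours in this order differed beyond the counting intervals. Of all 36 pairs, 4 had intervals apart, namely Arid1b, Arid1a, Arid2 and Smarcc2 each against Smarca2. Genes with more peaks have more chances of a high strongest fold, so this order is a description only. The median of the strongest folds was 4.46, against 4.03 over all protein-coding genes with a peak in or within 10 kb. These medians are not matched for number of peaks or span. Just 1 peak was listed at 4459 of those 6943 genes, and at 3 of the 9 members.

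As a group the 21 peaks were somewhat stronger and wider than the list. Their median fold was 4.13 (quartiles 3.70 and 4.85) against 3.72 (3.30 and 4.32) over all 8318, with 14 of 21 above the overall median. Their median width was 542 bp against 307 bp, from 212 bp at Arid2 to 1349 bp at Arid1a. The pileup ran from 31 to 64 fragments with a median of 44, against 38 over all peaks. The expected level was the genome background at 6 of 21, against 47.2% of all peaks, so most of these peaks stood over a raised local input. The interval of the fold held the overall median at 14 of 21 peaks, against 85.5% of all peaks. The -log10 q ran from 3.94 at Smarca2 to 27.4 at Arid1b, with a median of 11.5 against 8.47. Arid1a, Arid2 and Arid1b gave 5, 4 and 3 of the 21 peaks, so the pooled values weigh these genes most. By gene, the median fold ran from 2.58 at Smarca2 to 4.85 at Arid1b.

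**Figure D3:**
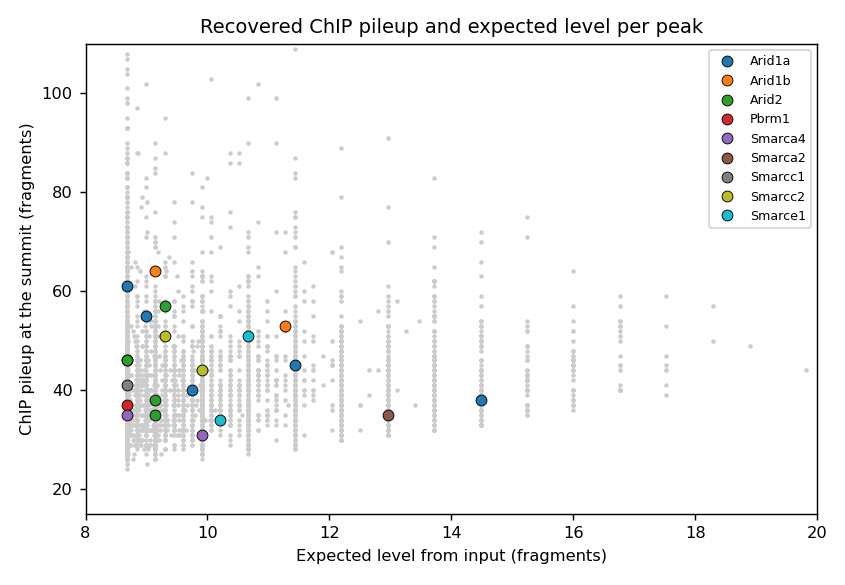
ChIP pileup at the summit against the level expected from input, in fragments, for the 21 peaks (coloured by gene) and the 8293 of 8318 peaks that fall in the range drawn (grey). An Arid1b and an Arid2 peak coincide at a pileup of 46 and an expected level of 8.68, and the Smarca2 peak and the weakest Arid1a peak sit at the highest expected levels, 13.0 and 14.5.

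Most summits lay beside the listed start sites and not on them, as in the whole list. By gene, 5 of the 8 with a listed start had a peak within 1 kb of it (Arid1a at both starts, Arid1b, Pbrm1, Smarca4 and Smarcc1). That compares with 23.9% of protein-coding genes with a listed start and 31.6% of those of like span. By start, 6 of the 9 had one, against 23.3% of the starts of protein-coding genes and 45.6% of those with at least 20 CpG. Only the outer Arid1a start was itself inside a peak, 1 of these 6, against 23.6% of the 4953 starts of protein-coding genes with a peak within 1 kb. With 6 starts, these shares are not read as different. Over all peaks, 5357 summits lay within 2 kb of a listed start, and 36.6% of these lay 100 to 300 bp downstream of it. There were 1963 summits in that stretch against 547 at 100 to 300 bp upstream and 564 within 100 bp on either side. The nearer Smarca4 summit (202 bp) and that of Smarcc1 (209 bp) lay in the stretch, and that of Pbrm1 did so only when counted from Gnl3. The summits around the listed starts of Arid1a and Arid1b lay farther out, 467 to 1394 bp from the nearest listed start of the gene. The first Arid1b summit was, however, 106 bp from the outer gene boundary, which is not a listed start. All 14 summits inside a member lay within 2390 bp of one of its start sites or boundaries. Of the 6373 summits inside protein-coding genes, 9.1% were over 5 kb from every start site and boundary of such genes. With 14 summits, a share that small cannot be told from none.

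**Figure D4:**
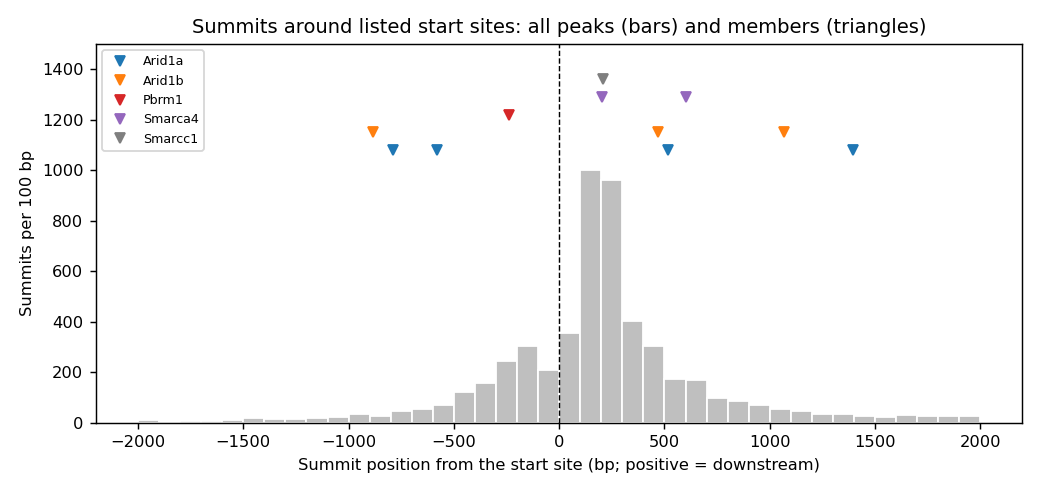
Summits of all peaks within 2 kb of a listed start site (bars, number per 100 bp, counted from the nearest start of any gene) and summits of Arid1a, Arid1b, Pbrm1, Smarca4 and Smarcc1 (triangles, from the nearest start of that gene; heights only separate the genes). The bars peak at 100 to 300 bp downstream, where the Smarcc1 and 1 Smarca4 triangle lie.

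Member promoters were rich in CpG whether or not a peak lay nearby. All 9 member promoters held 22 to 48 CpG dinucleotides, against a median of 7 over the 32851 promoters of the table. Of the starts of protein-coding genes with at least 20 CpG, 45.6% had a peak within 1 kb, against 23.3% of all such starts, so the members' 6 of 9 is to be read against the former. The lowest GC share was 60.7% at Smarcb1 and the highest 81.0% at Smarcc2, the starts of both being without a peak. The other start without one was that of Smarca2, with 29 CpG. Smarcc1 and Smarcb1 are printed next because both hold a GC box and the NRF1 letters, while a peak lay 77 bp from the start of Smarcc1 and none near Smarcb1. Capitals mark every match to the 9 motifs searched.
Smarcc1, chr9:110131774-110132073, plus strand: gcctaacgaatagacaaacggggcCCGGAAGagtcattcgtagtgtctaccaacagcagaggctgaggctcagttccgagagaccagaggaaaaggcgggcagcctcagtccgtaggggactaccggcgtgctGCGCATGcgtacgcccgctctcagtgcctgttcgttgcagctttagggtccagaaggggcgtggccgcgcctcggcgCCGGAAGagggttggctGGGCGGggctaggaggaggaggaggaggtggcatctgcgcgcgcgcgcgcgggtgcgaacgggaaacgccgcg
Smarcb1, chr10:75921565-75921864, minus strand: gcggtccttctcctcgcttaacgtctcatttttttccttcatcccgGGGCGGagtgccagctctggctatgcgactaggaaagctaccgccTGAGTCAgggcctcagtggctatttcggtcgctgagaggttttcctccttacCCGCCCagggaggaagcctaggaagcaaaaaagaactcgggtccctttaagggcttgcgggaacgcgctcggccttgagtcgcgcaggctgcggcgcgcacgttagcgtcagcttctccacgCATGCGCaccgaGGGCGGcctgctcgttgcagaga
The motifs, searched on both strands, were AP-1 (TGANTCA), CRE (TGACGTC), the GC box (GGGCGG), the CCAAT box (CCAAT), ETS (CCGGAAG), NRF1 (GCGCATG), the E-box (CACGTG), TEAD (GGAATGT) and YY1 (ATGGCGG). The GC box was in all 9 member promoters and in 35.7% of all promoters. The NRF1 letters were in 3 of 9, at Smarca4, Smarcc1 and Smarcb1, and in 3.91% of all promoters. ETS letters were in 2 (Smarca2 and Smarcc1; 8.86%), AP-1 letters in 2 (Smarca2 and Smarcb1; 7.81%) and the E-box in 1 (Pbrm1; 7.15%). No match was found to the CCAAT box (37.4% of all promoters), CRE (3.21%), TEAD (3.85%) or YY1 (4.05%). Both AP-1 matches were thus at promoters without a peak within 1 kb, although the Smarca2 peak lay 2030 bp from its start. No share of matches was split by nearby peak, so this is not read as a pattern. A match is a description of letters and not a site. The shares over all promoters are not matched for GC or CpG, and no share so matched was computed. The counts of matches are therefore not read as more or fewer than in like promoters.

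The 10 kb window decided little. The outermost peak inside it was the one at Pigv, 5779 bp from Arid1a, and the nearest outside were 19491 bp from Smarca4 (fold 4.13), 31004 bp from Smarcc1 (3.51) and 34799 bp from Smarcc2 (4.96). From Smarce1 and Pbrm1 the next peaks were 167332 and 129482 bp away.

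Accessory subunits of the same complexes carried peaks at a share between that of the members and that of all genes. Of 19, 14 had a peak in that window (73.7%, against 31.7% of all protein-coding genes). Within 1 kb of a start or boundary, 11 had one (57.9%, against 24.3%). The strongest were at the paired SYT-family genes Ss18 (9.12, 7.52 to 11.0) and Ss18l1 (7.23, 5.65 to 9.12), and at Actl6a (5.58, 4.20 to 7.26), which encodes the actin-like subunit BAF53A. Their median strongest fold was 4.19. The interval of the Ss18 peak overlaps that of the strongest Arid1b peak. The Ss18 summit lay 1496 bp from the nearest boundary of the gene, which is on chromosome 18, where no starts are listed. The difference between the lists was not tested.

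**Figure D5:**
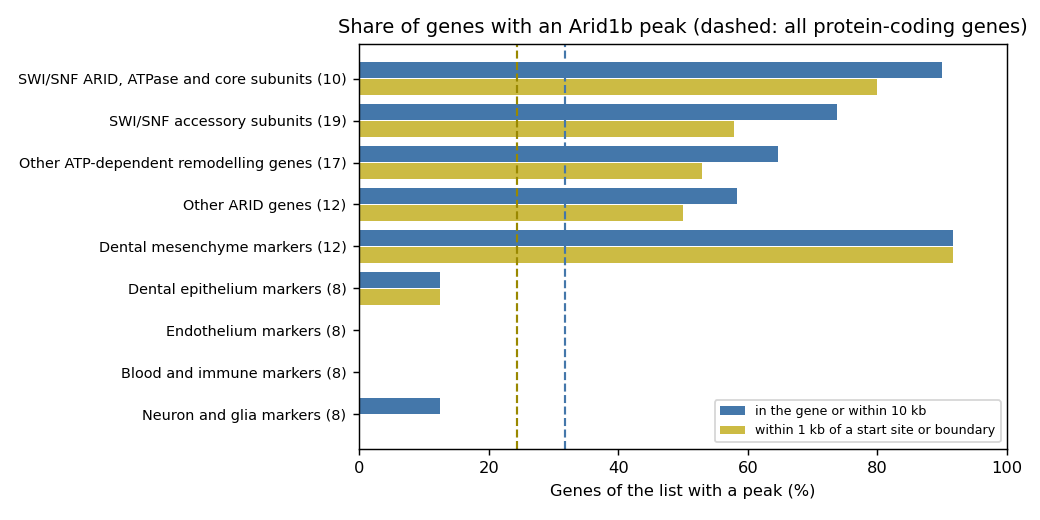
Percent of genes with an Arid1b peak in each list (gene number in brackets), in or within 10 kb (blue) and within 1 kb of a start site or boundary (yellow); dashed lines give all protein-coding genes, 31.7% and 24.3%. The ARID, ATPase and core subunits reach 90% and 80%, the dental mesenchyme markers 91.7% for both, and the endothelium and blood lists 0%.

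Peaks at marker genes are given beside the labelled cell type, although a peak is not a level of expression. They are no check on that label, because the lists were chosen with earlier results of these data known. Of 12 dental mesenchyme markers, 11 had a peak in or within 10 kb, against 31.7% of all protein-coding genes. Dlx1 and Dlx2 count among these with the same strongest peak. The other lists had 1 of 8 dental epithelium markers (Ambn), 0 of 8 endothelium, 0 of 8 blood and immune, and 1 of 8 neuron and glia markers (Mbp).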

How the data were processed

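Arid1b ChIP-seq and input came from primary mouse dental mesenchyme cells, 1 library each. The submitters' processing notes name FastQC 0.11.8, Bowtie2 2.2.5, Picard, MACS2 2.1.1 and mm10, but no roles or parameters. Read numbers were not used here. The deposited narrow peak list holds position, summit, fold (a linear ratio over input), -log10 of the p-value and of the q-value, and an unused score. Its peak names pair the ChIP with the input.

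The pileup and expected level of each peak are the whole pileup and level that solve the deposited fold and p-value under a Poisson model, with the fold taken as pileup plus 1 over expected level plus 1. All peaks were solved within 0.001 in -log10 p, and a level within 0.001 of the lowest counted as genome background. Python 3.11.15, pandas 2.3.3 and scipy 1.17.1 were used, with routines tested on simulated data. Genes and start sites came from RefSeq tables of GRCm38.p6. Gene boundaries come without strand, which was taken from the listed promoters (none on chromosome 18). Coordinates are 1-based.

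With 1 library a side no test was run. All 10 members are named with every peak, as are genes with a start or boundary within 1 kb of one, and up to 3 genes with the highest fold per comparison list. Members and lists were chosen with earlier results of these data known, and marker genes of other cell types were named after their values were seen. A marker gene is not reported here. Stricter thresholds, other windows, summits in place of intervals, background-level input and merging within 500 bp were the alternatives.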

Additional observations from a re-analysis of the deposited data

How the results depend on the processing

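Of 77 alternative values, 69 stayed within 1.5 times a reported count or within the interval of a reported fold. Of the 77, 42 were strongest folds, and 40 of these kept their value. That was largely fixed beforehand, since a strongest peak that stays listed keeps its fold and members without a peak gave no value. A fall from 9 to 6 members with a peak also counted as within 1.5 times. Exceptions came with stricter lists or fewer start points, which leave fewer peaks or genes by construction. With a fold of at least 5, 4 members had a peak within 10 kb and 3 within 1 kb of a start or boundary, 5 peaks were left and their median fold was 5.63. With -log10 q of at least 10, 12 of the 21 peaks were left. Over peaks with expected input at the genome background, 6 were left, and the strongest Arid1b fold was 4.85 in place of 6.41. Of all peaks, 47.2% were at that level. With listed start sites only, an alternative chosen after seeing the data, the 8 members near a start or boundary became 5, since Arid2 and Smarce1 have no listed start and the Smarcc2 peak lies at the far end. Smarca2 had no peak at -log10 q of at least 5. Smarca2, Smarcc2 and Smarce1 had none with background input, so no strongest fold is given there. Windows of 1, 5 and 20 kb left 9 members with a peak, and the gene body alone 8. Merging left 15 peaks, and neither Arid1a nor Arid2 then had at least 4. For stricter thresholds, other windows and merging, only the members were recounted, without the share of all genes or peaks. These counts therefore do not show whether the contrast with other genes holds under those settings. No paired analysis was possible because each side has 1 library. Depth limits single folds: the strongest ones, on 61 and 64 fragments, have intervals of 4.92 to 8.19 and 4.96 to 8.15.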

Other observations

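Genes of other chromatin remodelling families also carried Arid1b peaks, 11 of 17 inside or up to 10 kb away (31.7% of all protein-coding genes) and 9 within 1 kb of a start or boundary (24.3%). The strongest were at the chromodomain helicase genes Chd8 (fold 5.27, 3.94 to 6.91), Chd6 (4.77, 3.57 to 6.24) and Chd2 (4.75, 3.49 to 6.32). The 6 without a peak included both ISWI ATPase genes, Smarca5 and Smarca1, as well as Atrx and Hells, which were named after their values were seen.

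Of 12 further genes with an ARID DNA-binding domain, 7 had a peak within 10 kb, against 31.7% of all protein-coding genes. Arid4a, which encodes a retinoblastoma-binding protein, reached a fold of 7.85 (6.20 to 9.81), above the strongest fold at Arid1a, Arid1b or Arid2, although the intervals overlap. The histone demethylase gene Kdm5a followed with 5.95 (4.59 to 7.59), and Arid3a had 4.54 (3.32 to 6.08).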
